A study of Mus musculus with 6 samples.

Results

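The miR-297, miR-466, miR-467 and miR-669 families are rodent miRNAs whose precursors lie side by side in many copies. They were taken as every entry of the deposited read tables named miR-297, miR-466, miR-467 or miR-669, whatever the letter, copy or arm that follows. This gave 80 of the 1055 mature miRNAs. Groups of entries with the same counts in each of the 6 libraries were counted once, which left 71 distinct miRNAs. There were 7 such groups with 16 entries in all, and in one of them a miR-466 and a miR-669 name, miR-466m-5p and miR-669m-5p, had the same counts and were taken with miR-466. The libraries were made from the small RNA of whole brains of female 129SV mice aged 5.5 months, 3 of them wild type and 3 Adar2-/-. Adar2-/- mice lack the RNA editing enzyme ADAR2 in every tissue, and both genotypes carry the pre-edited Gria2 R/R allele, which lets Adar2-/- mice survive. The animals were siblings from crosses of Adar2 heterozygotes, with 1 brain in each library. Since whole brain was used, fewer cells of a type cannot be told apart from less RNA per cell. The brain markers miR-124, miR-9, miR-128 and miR-137 together took 113500 to 166700 RPM, reads per 1000000 mapped miRNA reads, in each library.

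miRNAs are cut from hairpin precursors, first by DROSHA in the nucleus and then by DICER. The 2 strands of the cut stem are the arms, named 5p and 3p by position or, in the older style of these tables, by a plain name for the arm usually found at the higher level and a star for the other. A mature miRNA finds its target mRNAs mainly through the seed, bases 2 to 8 from its 5′ end. The repeat families sit in a large intron of Sfmbt2, which codes for a Polycomb-group protein and is imprinted, the copy from the father being the active one in early embryos and placenta. ADAR enzymes bind double-stranded RNA and change adenosine to inosine, and miRNA precursors are among their substrates.

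In the mouse annotation of NCBIM37 (mm9), the build in the submitters' processing notes, 78 hairpin genes carry these numbers. Of these, 67 lie within Sfmbt2 (chr2:10292137-10516880, plus strand), each of them on the plus strand, as Sfmbt2 is. None of the 67 overlaps an annotated exon of a protein-coding gene. They stretch over 51336 bases, from 10388571 to 10439906. The Mir669 family has 29 hairpins there, Mir466 has 21, Mir467 has 12 and Mir297 has 5. In the middle of the cluster a unit of 1 Mir467, 1 Mir466 and 1 Mir669 hairpin recurs, and the starts of the 8 annotated Mir467a copies lie a median of 2470 bases apart (range 2451 to 7337). The other 11 hairpins lie elsewhere. Among them is Mir466i (chr13:17839307-17839427, plus strand), within an intron of Cdk13 and on its opposite strand.

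**Figure D1:**
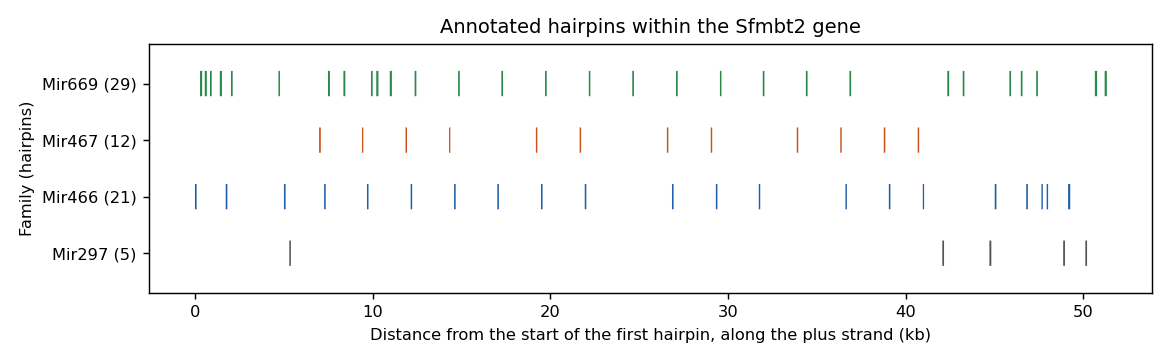
Hairpins of the 4 families annotated within Sfmbt2 on NCBIM37, by distance in kb from the start of the first hairpin. Each bar is 1 of the 67 hairpins, and the Mir467, Mir466 and Mir669 bars recur together in the middle of the cluster.

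The RefSeq table of miRNA sequences (GRCm38.p6) matched 7 of the 80 names, and these are shown as examples of the repeats in such names. Capitals mark the seed, and each sequence runs 5′ to 3′. On that build miR-466k lies at chr3:85467396-85467418, miR-669n at chr3:115979905-115979924, miR-467g at chr5:34732872-34732892 (minus strand), miR-467h at chr9:115381898-115381919, miR-466j at chr10:60960802-60960824, miR-467f at chr11:69635419-69635439 (minus strand) and miR-466i-3p at chr13:17747552-17747573, on the plus strand where not stated. By the NCBIM37 annotation the hairpins of miR-466k, miR-669n, miR-467g and miR-467f lie in introns of Arfip1, Slc30a7, Grk4 and Fxr2, each on the opposite strand, whereas those of miR-467h and miR-466j lie in no protein-coding gene.
miR-466k: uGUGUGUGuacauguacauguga
miR-466j: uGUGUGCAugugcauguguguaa
miR-669n: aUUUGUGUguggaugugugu
miR-467h: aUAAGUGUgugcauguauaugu
miR-467g: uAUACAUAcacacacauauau
miR-467f: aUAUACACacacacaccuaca
miR-466i-3p: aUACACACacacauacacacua
The first 4 are made up of G and U for 68.2% or more of their bases, and the last 3 of A and C for 71.4% to 86.4%. A run of 4 repeat units, written as UGUGUGUG or, on the other strand, CACACACA, was present in 5 of the 7. It stood in 11 of the 1679 mature names of RefSeq (0.655%), 6 of which belong to the 4 families. The 7 have 7 different seeds, and miR-467h shares its seed with miR-668-5p.

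Mapped miRNA reads ran from 12449633 to 23935544 per library, and wild-type replicate 1 had the fewest. The 71 distinct miRNAs together took 0.0311%, 0.0482% and 0.0461% of these reads in the wild-type libraries (numbers 1, 2 and 3 in turn, as below) and 0.0494%, 0.0838% and 0.0683% in the Adar2-/- ones. The 95% Wilson interval of a share reached no further than 0.00117 percentage points from it and covers counting error only, since reads amplified by PCR are not independent molecules. Each Adar2-/- library was thus above each wild-type library, although Adar2-/- replicate 1 and wild-type replicate 2 were close. In RPM the sum averaged 418 ± 93.4 for wild type and 672 ± 172 for Adar2-/- (SD over 3 libraries each), and the ratio was 1.59, 1.74 and 1.48 within replicate numbers 1 to 3. By family, only the miR-467 sum was separate between the genotypes, with means of 310 RPM in wild type and 540 RPM in Adar2-/-. The miR-466 sum averaged 67.3 RPM in wild type and 82.25 RPM in Adar2-/-, and the miR-669 sum 38.5 and 46.1 RPM. Both overlapped between the genotypes and were lower in Adar2-/- in replicate number 1, with ratios of 0.9 and 0.893. The small miR-297 sum overlapped too. No test was made on a sum over chosen miRNAs.

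Most of the entries were hardly read. Of the 71 distinct miRNAs, 12 (15 entries) reached at least 100 reads in every library, the minimum used for testing, 6 more reached 10 reads in every library, and 53 did not. None was without reads in all libraries, and 14 had no read in 1 or more of them. miR-467 was the most abundant family, with 309.6 ± 98.7 RPM in the wild type (SD, n = 3), followed by miR-466 with 67.3 ± 6.32, miR-669 with 38.5 ± 8.85 and miR-297 with 2.51 ± 0.377. miR-467d alone took 34.5% to 51.0% of the reads of all 4 families in a library and ranked between 125 and 203 among the 1055 miRNAs.

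Counts were compared between the genotypes with edgeR's quasi-likelihood test on the 399 miRNAs above that minimum, with Benjamini-Hochberg adjustment and a threshold of 0.05. A log2 fold change above 0 stands for more reads in Adar2-/-. Of all miRNAs tested 0% passed, and of the 12 repeat-family miRNAs 0 passed, with adjusted p-values of 0.988 to 0.989 in edgeR. Without adjustment 3 of the 12 had a p under 0.05, each higher in Adar2-/-, where 2.26% of all tested miRNAs were higher and 1% lower with such a p (3.26% together). DESeq2 also called 0 of the 12, and 3 had an unadjusted p under 0.05, for which no share over all miRNAs was taken. Among the 12, 10 had a fold change above 0 on the log2 scale, against 50.4% of all miRNAs tested, and the median was 0.54, against 0.0023 over all 399. Reads that hit several miRNAs equally well were given weights by the authors, so the values of members with similar sequences need not be independent. The paper reports editing in wild-type brain for miR-467a, miR-467c, miR-467d, miR-467d*, miR-467e and miR-669c. These names were taken from its list of edited miRNAs that also changed in abundance. That list was chosen on abundance, so it does not tell whether the other members are edited. The paper's mapping allowed mismatches, and whether edited reads were lost or counted under a similar entry was not tested.

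The 3 smallest unadjusted p-values belonged to the miR-467 family. The log2 fold changes of these 3 ran from 0.707 to 1.24 when libraries were left out or the method was changed. Leaving out wild-type replicate 1 or Adar2-/- replicate 2 left 0 of the 12 with an unadjusted p under 0.05. Leaving out Adar2-/- replicate 3 left 1, wild-type replicate 3 left 2, and wild-type replicate 2 left 3. Fits with fewer libraries have less power, so such counts do not show dependence on a single library. Leaving out Adar2-/- replicate 1 gave 6. With replicate number 1 left out in both genotypes there were 5, and with number 2 or 3 left out 0. The share of all tested miRNAs with such a p was not taken with libraries left out, so these counts cannot be set against it. A rule of direction and size was taken from the study, without the p-value limit that its lists add. By it a miRNA must differ in the same direction under each replicate number and by at least 1.3-fold in mean RPM. Of the 12, 7 were higher in Adar2-/- by this rule and 1 was lower. The study, from the same data, also lists these 7 as higher. It started from more miRNAs and counted more of them as higher, so its set was not reproduced exactly here. Of all tested miRNAs 5.51% met the rule as higher and 4.26% as lower, and 9.02% and 7.02% did so without the fold. In 3 of the 12 each Adar2-/- library lay above each wild-type library, where 2.76% of all tested miRNAs did so, and in 0 of the 12 below, where 3.01% did so.

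**Figure D2:**
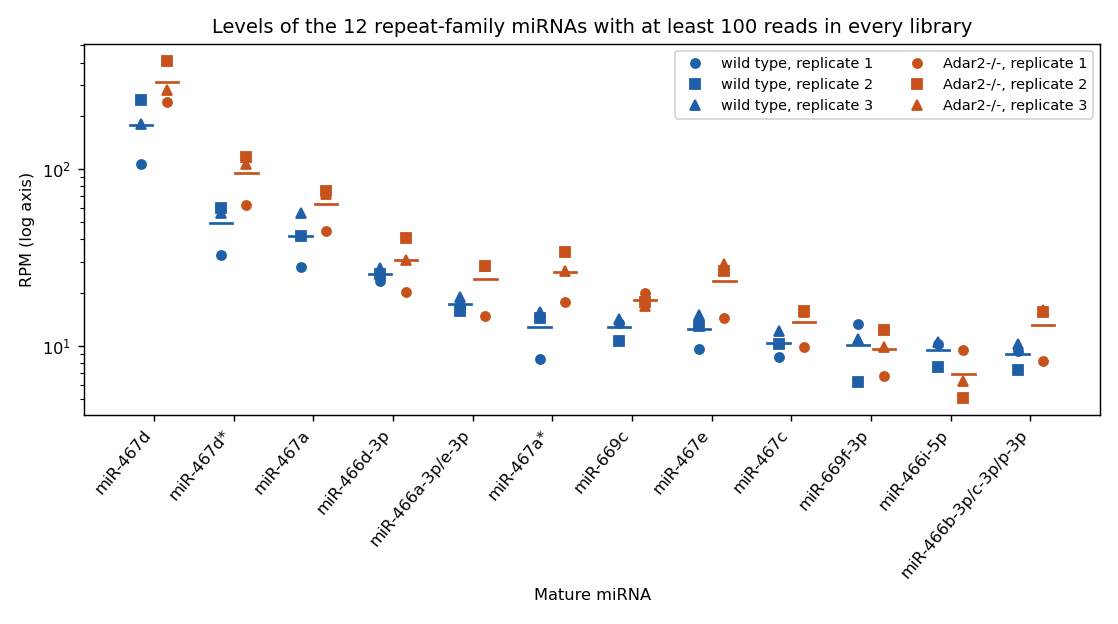
RPM on a log axis of the 12 tested repeat-family miRNAs, with wild type in blue, Adar2-/- in orange, 1 symbol per replicate number and a line at the mean of 3 libraries. miR-467a*, miR-467d* and miR-669c are the 3 whose genotypes do not overlap.

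Among the plain-named arms of the miR-467 family, miR-467d had the most reads. Its hairpin lies at chr2:10429257-10429341 (NCBIM37, plus strand, Sfmbt2 intron). Its level was 107, 245 and 179 RPM in wild type and 240, 409 and 281 RPM in Adar2-/-. Wild-type replicate 2 overlapped the Adar2-/- range, whereas within each replicate number Adar2-/- was higher, by ratios of 2.24, 1.67 and 1.57. The log2 fold change was 0.81 (standard error 0.387, edgeR adjusted p = 0.988, unadjusted p = 0.0634), and a two-sided exact permutation test of the RPM gave p = 0.2, with 0.1 the smallest p that 3 libraries against 3 allow.

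miR-467e, from chr2:10427348-10427434 on the same strand and in the same intron, stood at 9.56, 13.0 and 15.0 RPM in wild type and 14.4, 26.5 and 29.1 RPM in Adar2-/-. Adar2-/- replicate 1 lay just under the highest wild-type library, and the other Adar2-/- libraries were far above. Its log2 fold change was 0.90 (standard error 0.371, edgeR adjusted p = 0.988, unadjusted p = 0.0359), with p = 0.2 in the two-sided exact permutation test. miR-467a, which 8 hairpins of the cluster can yield, stood at 27.9, 41.7 and 56.6 RPM in wild type and 44.8, 74.8 and 71.9 RPM in Adar2-/-. Its genotypes overlapped, and the log2 fold change was 0.60 (standard error 0.376). miR-467c (chr2:10395558-10395654) had 8.68, 10.3 and 12.1 RPM in wild type and 9.81, 15.9 and 15.5 RPM in Adar2-/-, with a log2 fold change of 0.41 (standard error 0.330). All 4 tested plain-named arms were higher in Adar2-/- in each replicate number, and 0 of them passed the test.

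In both tested star arms of this family the genotypes were separate. miR-467a* had 105, 327 and 366 reads in wild type and 332, 805 and 633 reads in Adar2-/-, or 8.43, 14.4 and 15.6 RPM against 17.8, 34.1 and 26.4 RPM. Each Adar2-/- library was above each wild-type library, and the ratio of the means was 2.04. The log2 fold change was 1.03 (standard error 0.380, edgeR adjusted p = 0.988, unadjusted p = 0.0220), with p = 0.1 in the two-sided exact permutation test. The 105 reads of wild-type replicate 1, the fewest of any tested family member, carry a 95% Wilson interval of 6.97 to 10.2 RPM, for counting error only.

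miR-467d* stood at 32.5, 60.0 and 56.6 RPM in wild type and at 62.3, 117 and 107 RPM in Adar2-/-. The lowest Adar2-/- library was close to the highest wild-type library and did not overlap it. Its log2 fold change was 0.94 (standard error 0.380, edgeR adjusted p = 0.988, unadjusted p = 0.0323), and the two-sided exact permutation test gave p = 0.1. Summed over the 5 star arms, the family had 42.0, 75.6 and 73.4 RPM in wild type and 81.3, 154.8 and 136 RPM in Adar2-/-, a ratio of the means of 1.95, against 1.69 for the 8 plain-named arms. Both sums were higher in Adar2-/- in each replicate number.

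The miR-466 family was less even across replicate numbers. Its 3 tested 3p arms were lower in Adar2-/- in replicate number 1 and higher in numbers 2 and 3. miR-466d-3p (chr2:10433594-10433689) stood at 23.1, 25.4 and 27.7 RPM in wild type and at 20.3, 40.7 and 30.7 RPM in Adar2-/-. miR-466a-3p and miR-466e-3p, which cannot be told apart by their counts, had 16.9, 15.8 and 18.9 RPM in wild type and 14.7, 28.3 and 28.3 RPM in Adar2-/-. For miR-466b-3p, miR-466c-3p and miR-466p-3p, likewise with 1 set of counts, the values were 9.40, 7.29 and 10.3 RPM against 8.21, 15.5 and 15.9 RPM. In each of these 3, Adar2-/- replicate 1 lay within or under the wild-type range and the other Adar2-/- libraries above it. The log2 fold changes were 0.27, 0.47 and 0.56 with standard errors of 0.349, 0.352 and 0.356, and 0 of the 3 passed. For miR-466d-3p, the most abundant of the family, the unadjusted p was 0.463 (edgeR adjusted p = 0.988) and the exact permutation test gave p = 0.5.

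miR-466i-5p is the one tested member whose annotated hairpin lies outside Sfmbt2. Its level was 10.3, 7.59 and 10.5 RPM in wild type and 9.44, 5.09 and 6.35 RPM in Adar2-/-. It was lower in Adar2-/- in each replicate number, with ratios of 0.918, 0.670 and 0.606, and the genotypes overlapped through Adar2-/- replicate 1. The log2 fold change was −0.44 (standard error 0.343, edgeR adjusted p = 0.988, unadjusted p = 0.227), with p = 0.2 in the two-sided exact permutation test. With TMM factors, or with totals less the 5 most abundant miRNAs, it kept a negative log2 fold change but no longer met the rule of direction and size. Of the 11 tested members of the Sfmbt2 cluster, 10 had a log2 fold change above 0. No test was made of the difference between the 2 positions, since 1 tested miRNA stands for the hairpins outside the cluster. Summed over its 8 distinct members, the group outside Sfmbt2 had 12.6 ± 1.69 RPM against 10.1 ± 1.62 RPM in Adar2-/- (SD, n = 3), and miR-466i-5p made up most of it. The members with a printed sequence had few reads, from 6 for miR-467h to 101 for miR-467f over all 6 libraries.

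**Figure D3:**
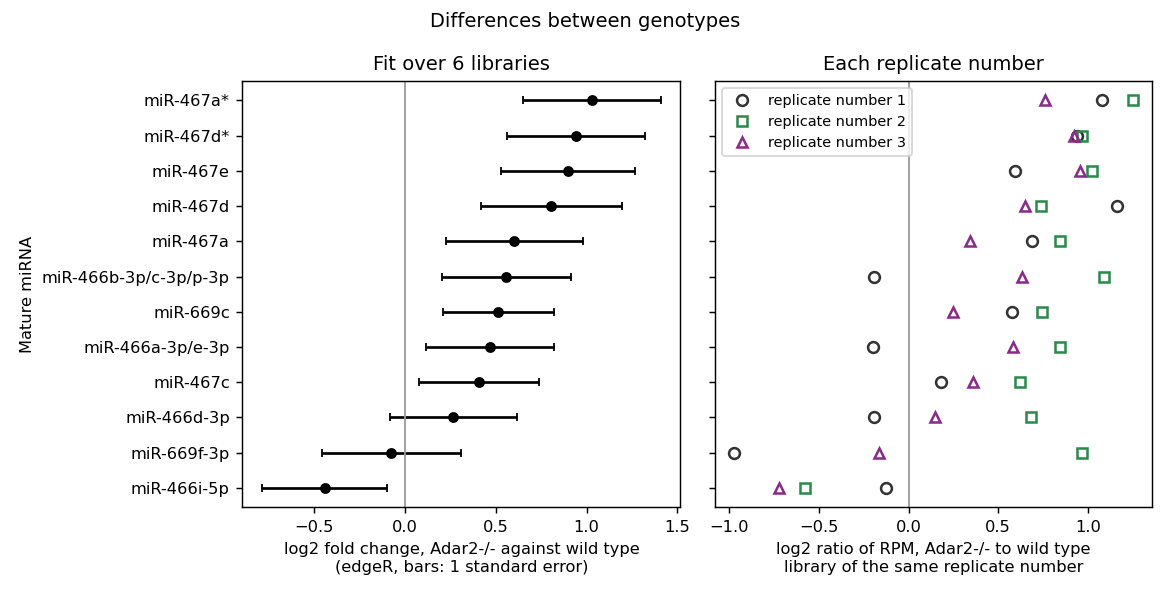
Left, edgeR log2 fold change of Adar2-/- against wild type with 1 standard error for the 12 tested miRNAs, and right, the log2 ratio of RPM in each replicate number. The 6 miR-467 miRNAs and miR-669c lie above 0 in each replicate number, miR-466i-5p lies below 0 in each, and the 3p arms of miR-466 lie below 0 in number 1 only.

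In the miR-669 family only miR-669c and miR-669f-3p reached 100 reads in every library. miR-669c (chr2:10430923-10431031) stood at 13.4, 10.6 and 14.3 RPM in wild type and at 20.0, 17.8 and 16.9 RPM in Adar2-/-. Each Adar2-/- library lay above each wild-type library, with ratios of 1.49, 1.67 and 1.19 in replicate numbers 1 to 3. The log2 fold change was 0.51 (standard error 0.304, edgeR adjusted p = 0.988, unadjusted p = 0.122), with p = 0.1 in the two-sided exact permutation test. miR-669f-3p, from the other end of the cluster (chr2:10388856-10388976), stood at 13.3, 6.28 and 11.0 RPM for wild type and at 6.76, 12.3 and 9.82 RPM in Adar2-/-, and the genotypes overlapped fully. Its log2 fold change was −0.08 (standard error 0.380, edgeR adjusted p = 0.989, unadjusted p = 0.847), with p = 0.8 in the exact permutation test, and without wild-type replicate 1 it was 0.16.

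The 6 miRNAs that fell short of 100 reads in some library but had 10 or more in each had no common direction. With the minimum set to 10 reads in every library, 608 miRNAs were tested and 0% passed in edgeR, whereas 3.29% had an unadjusted p under 0.05. Of the 18 family members among them 0 passed, 3 had an unadjusted p under 0.05, and 14 had more reads in Adar2-/- by the fit, against 51.6% of all 608. In each replicate number 7 of the 18 were higher, where 10.2% of the 608 were, and 2 were lower, where 8.22% were. The genotypes were separate for 3 of the 18, each higher in Adar2-/-, where 2.8% of the 608 were separate and higher and another 2.8% separate and lower. miR-669a-3p and miR-669o-3p, with shared counts and 73 reads in wild-type replicate 1, stood at 5.86, 4.57 and 7.16 RPM in wild type and 4.08, 9.67 and 9.36 RPM in Adar2-/-. miR-467b had 2.57, 1.36 and 3.20 RPM against 2.36, 4.07 and 3.63 RPM. Both followed the pattern of the miR-466 3p arms, lower in Adar2-/- in replicate number 1 and higher in the others. miR-669c* was lower in Adar2-/- in each replicate number, with ratios of 0.567, 0.740 and 0.820 (33, 30 and 61 reads in wild type, 28, 23 and 51 reads in Adar2-/-), while its partner miR-669c was higher in each. miR-466c-5p had a log2 fold change of −0.03 and miR-669f-5p of 0.55 in this fit.

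miR-297 was the least read family. Its most abundant member, miR-297a, had 15, 20 and 21 reads in wild type and 14, 31 and 46 reads in Adar2-/-, or 1.20, 0.878 and 0.895 RPM against 0.751, 1.31 and 1.92 RPM. It was lower in Adar2-/- in replicate number 1 and higher in the others, with a log2 fold change of 0.45 (standard error 0.417) at the minimum of 10 reads (edgeR adjusted p = 0.982). The one 5p entry of the family, miR-297b-5p, had 3, 10 and 7 reads in wild type and 11, 16 and 12 reads in Adar2-/-. The most abundant star arm of the family, miR-297a-5*, had 1 to 9 reads. In the other families miR-669h-5p (5 to 31 reads) and miR-466k (1 to 22 reads) were the most abundant 5p arm of miR-669 and plain-named arm of miR-466. In RPM the genotypes were separate for miR-297b-5p and overlapped for miR-297a-5*, miR-669h-5p and miR-466k. Over the 53 members under 10 reads in 1 or more libraries, the genotypes were separate for 7 that were higher in Adar2-/- and 2 that were lower, miR-669g and miR-669m-3p, both named after their values were seen and with at most 4 reads in any library. Of all 434 miRNAs with so few reads, 5.53% were separate and higher and 4.84% separate and lower. Of the 53, 34 had a higher mean RPM in Adar2-/-, where 50.2% of the 434 did. Summed, these 53 had 15.3, 14.5 and 18.0 RPM in wild type and 14.9, 22.0 and 24.2 RPM in Adar2-/-.

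Both arms of a hairpin come from 1 precursor, and their ratio within a library needs no scaling. The ratio of the star or 5p arm to the other arm was therefore compared. Both arms reached 100 reads in every library for miR-467a and miR-467d. For miR-467a the log2 ratio of miR-467a* to miR-467a was −1.73, −1.54 and −1.86 in wild type and −1.33, −1.13 and −1.44 in Adar2-/-. The genotypes did not overlap, the star arm being relatively more abundant in each Adar2-/- library. The mean ratio differed by 0.41 (p = 0.1, the smallest that the exact permutation test can give), and this ran from 0.32 to 0.49 when single libraries or replicate numbers were left out. Of the 102 hairpins of the whole series with 100 reads on both arms, 4.9% were separated in this direction and 4.9% in the other. Reads of miR-467a may stem from any of its copies, so the ratio is a mean over precursors.

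For miR-467d the log2 ratio was −1.72, −2.03 and −1.66 in wild type and −1.95, −1.80 and −1.39 in Adar2-/-. The genotypes overlapped, and the difference of 0.09 (p = 0.7 in the same exact permutation test) was −0.021 when wild-type replicate 2 was left out and −0.069 when Adar2-/- replicate 3 was. A further 3 pairs of arms reached 10 reads in every library. For miR-669f-5p over miR-669f-3p, with 11 to 24 reads on the 5p arm, the log2 ratio was −3.67, −3.70 and −4.43 in wild type and −2.73, −3.60 and −3.56 in Adar2-/- (p = 0.1 in the exact permutation test), and the genotypes did not overlap, as in 3.61% of the 194 hairpins at this minimum in the same direction and 3.61% in the other. For miR-669c the ratio was lower in Adar2-/- by 1.04 on the log2 scale (wild type −2.60 ± 0.36, Adar2-/- −3.64 ± 0.61, SD, n = 3, exact permutation test p = 0.2). For miR-466c it was lower by 0.53, and the genotypes overlapped in both. The reads of miR-466c-3p are shared with miR-466b-3p and miR-466p-3p, so that ratio is not of the arms of 1 precursor.

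**Figure D4:**
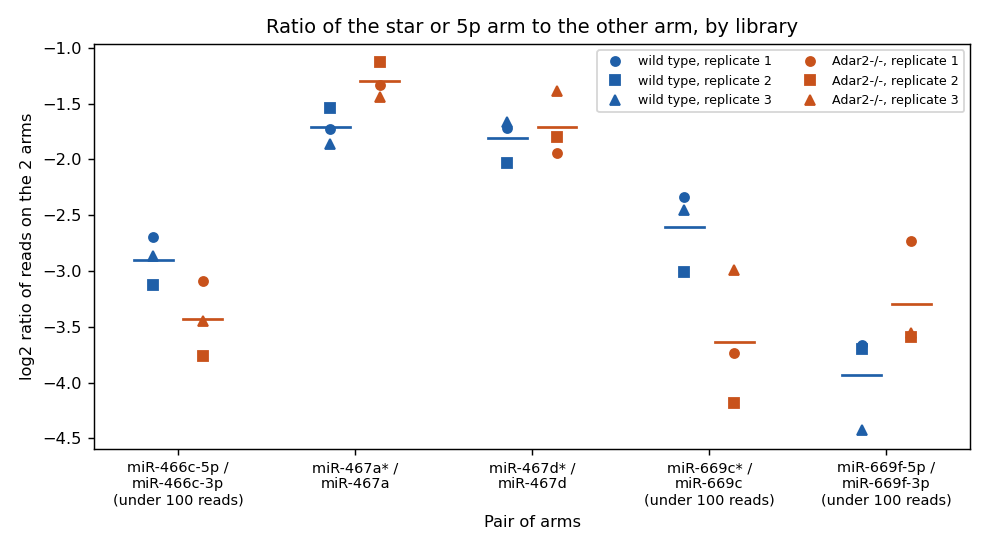
Log2 ratio of the reads on the star or 5p arm to those on the other arm for 5 hairpins, by library, with a line at the mean of 3 libraries. The genotypes do not overlap for miR-467a and miR-669f and overlap for the others.

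A short chosen list of miRNAs of other families was read beside them. The other RefSeq names outside the families that hold the run of repeat units were not looked at. miR-574-5p, which holds the same run of repeat units, stood at 10.0, 4.39 and 5.37 RPM in wild type and 6.92, 4.49 and 6.14 RPM in Adar2-/-, with a log2 fold change of −0.16 (standard error 0.385, edgeR adjusted p = 0.989). miR-1187, which also holds it, had 13 to 38 reads per library and a log2 fold change of −0.40 (standard error 0.384) at the minimum of 10 reads. miR-574-3p, from the other arm of the Mir574 hairpin, had 0.13 (standard error 0.453) at that minimum. None of the 3 was higher in Adar2-/- in all replicate numbers, where 9.02% of all tested miRNAs were, or 10.2% at the minimum of 10 reads. So few miRNAs cannot show a contrast with the families.

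Markers of other cell types were summed per library. In none of the 10 lists did the genotypes separate. The oligodendrocyte list rested on miR-338-3p alone, since miR-219 had no entry under that name, and the liver list held only miR-122. miR-338-3p of oligodendrocytes (210.7, 387 and 385 RPM in wild type, 237, 441 and 519 RPM in Adar2-/-) and miR-122 of liver (3.95 to 4.90 against 4.16 to 7.23 RPM) were higher in Adar2-/- in each replicate number. Epithelial markers were low in Adar2-/- replicate 3, with 738 RPM against 4783 to 9210 RPM in the other libraries, and the sensory cell markers miR-182, miR-183 and miR-96 were low there too, with 19160 RPM against 89660 to 186900 RPM. The endocrine markers miR-375 and miR-7a were high in wild-type replicate 1, with 6270 RPM against 1010 to 3640 RPM. Their part in the values above was not tested. Each library had its own sequencing lane, so a lane effect and a difference between brains cannot be told apart.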

How the data were processed

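Small RNA of 6 whole brains was sequenced by the authors, who removed adaptors with Cutadapt, mapped with NextGenMap to mature miRNAs of miRBase and gave weights to reads that hit several of them equally well. The authors deposited raw read counts in 3 tables, each with 1 wild-type and 1 Adar2-/- library. How weights became whole numbers is not given in the sources used here. Family sums and shares count identical entries once, and would be larger if each such entry held a part of the shared reads. Columns were matched to samples by genotype and table number, and 12 blank lines were dropped. RPM uses the total of each library.

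The test across miRNAs was the quasi-likelihood test of edgeR 4.0.16 (R 4.3.3) with library totals as they are, for those that had 100 reads or more in each library. For single values, exact permutation tests (two-sided, scipy 1.17.1) were used. The procedures were tested on simulated data. Alternatives were TMM, DESeq2 1.42.0, totals less the 5 most abundant miRNAs, other minimums, a replicate block, identical rows fitted once and left-out libraries, for which the tested miRNAs were kept. Named were all tested members and the most abundant of each family. Members and lists were chosen with earlier results of these data known. Adar2 mRNA was not analysed here, so genotypes were not checked from these counts. The paper reports fewer A to G mismatches in the Adar2-/- libraries and less Adar2 mRNA in Adar2-/- brain by microarray. Hairpins were matched by name.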

Additional observations from a re-analysis of the deposited data

How the results depend on the processing

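Over 17 alternatives for each of the 12 tested miRNAs, 201 of 204 log2 fold changes kept their direction and 0 passed the threshold, with adjusted p-values from 0.0735 to 0.999. miR-669f-3p turned to 0.16 without wild-type replicate 1, 0.12 without Adar2-/- replicate 1 and 0.36 without replicate number 1 (−0.55 to 0.36 over left-out libraries). The log2 arm ratio of miR-467d turned to −0.021 and −0.069 without wild-type replicate 2 and Adar2-/- replicate 3 (−0.069 to 0.25 over left-out libraries), which left 1 in place of 2 hairpins higher (range 1 to 2 over left-out libraries). Among all tested miRNAs DESeq2 called 1, and leaving out libraries gave 0 to 18 calls, the 18 without replicate number 1, where 0 were family members and the median log2 fold change of all 399 was 0.17. The 3 family members with an unadjusted p under 0.05 became 5 with no minimum of reads and 0 to 6 with libraries left out. Of the members higher in all replicate numbers by 1.3-fold, 7 became 3 when the genotypes had to be separate. The 1 lower member became 0 with TMM factors, 0 with the totals without the 5 most abundant miRNAs, 0 with separate genotypes, 2 at a minimum of 10 reads and 0 to 2 with a replicate number left out. With the replicate number as a block, 0 family members passed and 4 had an unadjusted p under 0.05. The share of all tested miRNAs with such a p was taken only for the main fit and for the minimum of 10 reads. The correlations of deviations from the group means for same-numbered libraries were −0.00103, −0.0756 and −0.0136 over the 399 miRNAs, by which the numbers were not taken as pairs. Over the 12 family members they were 0.321, 0.389 and 0.376, against −0.378 to 0.0768 for libraries of different numbers. Each library there correlated best with its own number, a hint from the data. The deposited tables also group the libraries by number, but the sources used here do not state that these were handled as pairs. Deviations from a group mean constrain each other, and similar members share reads, so these correlations are not independent of one another.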
